A study of Caenorhabditis elegans with 2 samples.

Results

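Peak entries for PHA-4 at tRNA genes were taken from chromatin immunoprecipitation and sequencing (ChIP-seq) of Caenorhabditis elegans embryos. An entry was kept when its summit lay from 1000 bp upstream to 200 bp downstream of the 5′ end of a nuclear gene of biotype tRNA. This left 386 of the 21931 entries of the pooled list, which was called on the reads of both replicates. They lay in the windows of 374 of 612 nuclear tRNA genes. The 5′ end is that of the annotated tRNA gene, not a mapped start of transcription.

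The samples were 2 biological replicates in 1 group. They were mixed-stage embryos, male and female together, of strain OP37, genotype unc-119(ed3) III with the array wgIs37. The array supplies PHA-4 fused to eGFP beside the strain's own pha-4. The labels name the fusion as the target but the antibody as pha-4, so whether entries report the fusion alone or also native PHA-4 is not settled. Control samples were not analysed here. Each replicate list held 30000 entries, and the thresholded set, which the authors derived from these lists by the irreproducible discovery rate, held 2177. The depth of the replicates is unknown, so intervals below are exact binomial intervals for counting error only. Since whole embryos were used, binding in few cells and weak binding in many cannot be told apart.

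PHA-4 is the FoxA transcription factor that specifies the worm pharynx. It is also present in the gut. Transfer RNA genes are transcribed by RNA polymerase III from a promoter that lies inside the gene. Its A box and B box are bound by the factor TFIIIC, which places TFIIIB, the factor that recruits the polymerase, just upstream of the gene.

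Among the entries kept by this rule, most of the strongest lay at the 5′ end of a tRNA gene. Shown are 6 such loci, with ZK994.t2 as an identical gene that has no summit at its 5′ end, so that the summit can be read against the internal promoter. Each run is WBcel235 (ce11) sequence from RefSeq on the strand of the tRNA gene, 60 bp of upstream sequence followed by the gene to its annotated end. Capitals mark matches to the B box, searched as GGTTCGA followed by any 2 bases and CC.
C33G3.t2: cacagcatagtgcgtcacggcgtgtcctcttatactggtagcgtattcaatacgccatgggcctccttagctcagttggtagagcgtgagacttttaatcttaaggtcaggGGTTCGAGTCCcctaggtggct
ZK994.t2: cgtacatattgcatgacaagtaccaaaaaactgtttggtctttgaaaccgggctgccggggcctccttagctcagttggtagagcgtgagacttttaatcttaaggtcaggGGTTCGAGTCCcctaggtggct
R04D3.t2: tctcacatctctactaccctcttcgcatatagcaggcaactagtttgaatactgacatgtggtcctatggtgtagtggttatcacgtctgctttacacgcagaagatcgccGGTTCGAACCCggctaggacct
C04A11.t1: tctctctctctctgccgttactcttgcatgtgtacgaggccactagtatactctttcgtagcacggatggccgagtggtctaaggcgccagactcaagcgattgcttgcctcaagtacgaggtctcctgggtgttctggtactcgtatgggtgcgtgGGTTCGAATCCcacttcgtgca
C06G1.t1: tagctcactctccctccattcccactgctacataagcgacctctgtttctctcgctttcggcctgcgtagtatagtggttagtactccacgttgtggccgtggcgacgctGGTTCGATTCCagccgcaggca
ZK899.t1: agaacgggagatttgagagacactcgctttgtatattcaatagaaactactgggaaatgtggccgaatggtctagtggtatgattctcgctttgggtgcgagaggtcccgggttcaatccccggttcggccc
C16B8.t2: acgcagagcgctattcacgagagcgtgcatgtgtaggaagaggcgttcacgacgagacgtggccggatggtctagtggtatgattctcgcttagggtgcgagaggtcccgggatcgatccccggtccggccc
These runs lie at chrX:14063946-14064078 (minus strand, tRNA-Lys), chrV:8499564-8499696 (minus, tRNA-Lys), chrX:13306974-13307106 (plus, tRNA-Val), chrX:13665495-13665673 (plus, tRNA-Leu), chrX:16634830-16634961 (minus, tRNA-His), chrX:9467729-9467860 (minus, tRNA-Pro) and chrX:3970036-3970167 (plus, tRNA-Pro). The genes C33G3.t2 and ZK994.t2 have the same 73 letters and differ in the sequence before them. The summit lay 32 bp upstream of C33G3.t2, whereas the nearest summit to ZK994.t2 lay 913 bp upstream of it. With negative values upstream, the summit lay at -20 bp for R04D3.t2, -23 bp for ZK899.t1 and -12 bp for C16B8.t2. For C04A11.t1 and C06G1.t1 it lay inside the gene, at 11 and 13 bp. The genes ZK899.t1 and C16B8.t2 hold no match to the B box letters as searched, and their entries ranked 459 and 412 in the pooled list. The search was strict, so these genes may still hold the box.

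Entries at tRNA genes gathered at the 5′ end of the gene, and those close to it were the stronger ones. Of the 386 entries, 254 (65.8%, 95% interval 60.8 to 70.5) had their summit within 100 bp of the 5′ end on either side. The median summit lay 26 bp upstream, at -26 bp. Upstream bins of 100 bp from 1000 to 100 bp held 4 to 18 entries each. The bin from 100 bp upstream to the 5′ end held 152, and the bin from the 5′ end to 100 bp downstream held 101. In steps of 20 bp the fullest bin ran from 40 to 20 bp upstream, with 79 entries, of which 30 were in the thresholded set. In the pooled list the summit thus most often fell just before the gene. These bins are finer than the median of 37 bp between the summits of the 2 replicates. How reads shared by identical copies were treated is not given, which bears on summit positions in and beside the gene. In 155 entries within 100 bp whose gene matched the B box letters, that box began a median of 70 bp downstream of the summit (quartiles 30.5 and 83).

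**Figure D1:**
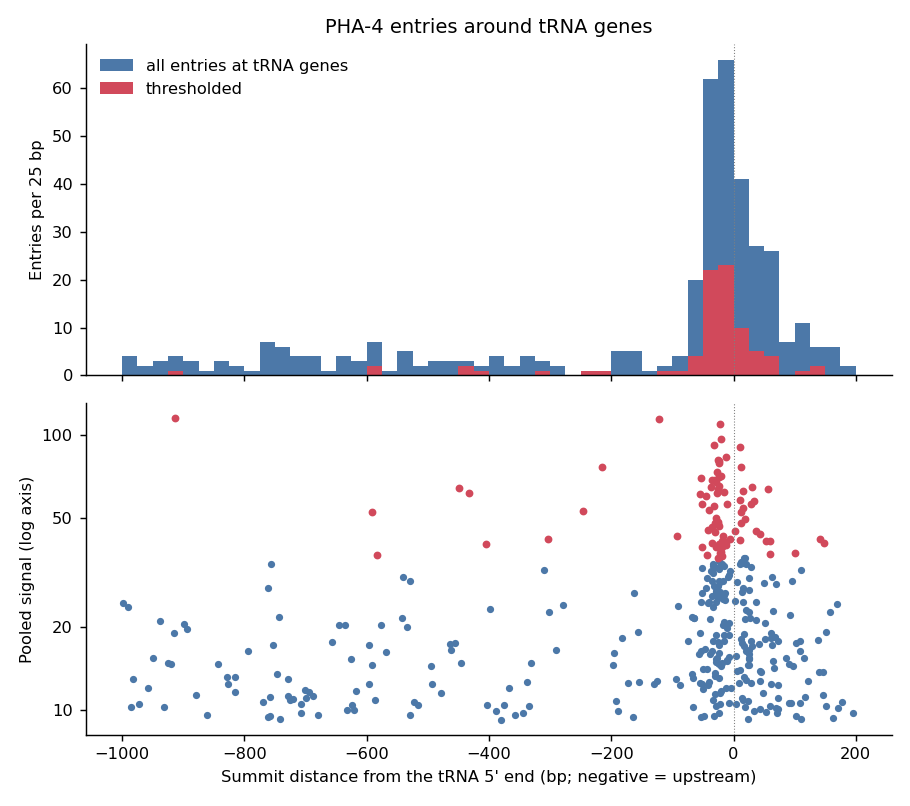
Summit distance of 386 PHA-4 entries from the 5′ end of the nearest tRNA gene, in bp, with negative values upstream, as counts per 25 bp (top) and against pooled signal on a log axis (bottom). Red marks the 82 thresholded entries, of which 70 lie within 100 bp of the 5′ end.

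Signal here is the peak caller's own value for each entry against control reads, as deposited, and it is compared within a list. The pooled signal of entries at tRNA genes ranged from 9.22 to 115.4 with a median of 18.3, and the median over all pooled entries was 12.8. Within 100 bp of the 5′ end the median was 24.6, and it was 13.6 for the 132 entries farther away. In the thresholded set were 82 of the 386 entries (21.2%, 95% interval 17.3 to 25.7), beside 9.93% of all pooled entries. Near the 5′ end 70 of 254 were thresholded (27.6%, 22.2 to 33.5), and farther away 12 of 132 (9.09%, 4.79 to 15.3). The share among the entries farther away was thus close to that of the whole pooled list. The thresholded set held the entries ranked 1 to 2177 by pooled signal, the lowest at 35.91. Thresholded shares here and below are thus shares above a signal cut, and no evidence apart from signal. No test was made of these differences.

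Entries in protein-coding promoter windows (drawn in the same way around protein-coding 5′ ends) were a minority here. Such windows held 94 of the 386 summits (24.4%, 20.2 to 29.0), beside 36.2% of all pooled entries. Among the 292 outside them, 60 were thresholded (20.5%), and 197 (67.5%) lay within 100 bp of the tRNA 5′ end. By place, 146 summits lay outside protein-coding genes with 31 thresholded, 121 in introns with 29 thresholded, and 25 in exons with 0 thresholded. Intronic entries had a median signal of 21.5, entries in protein-coding promoter windows 20.7, and exonic entries 12.7. The exonic entries were the weakest of these groups, but they were also mostly far from the tRNA 5′ end. Within 100 bp of it lay 5 of 25 exonic summits, 93 of 121 intronic ones and 99 of 146 outside protein-coding genes. Place and distance were thus not separated.

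The single strongest entries at tRNA genes were seen in both replicates. The strongest of all, 913 bp upstream of ZK994.t2 (summit at V 8500549), had signals of 33.0 in replicate 1 and 74.1 in replicate 2 and a pooled signal of 115.4. The entry 122 bp upstream of the tRNA-Arg gene F47G6.t1, inside spe-15, had 41.6 and 70.2, and pooled 114.5. These 2 summits lay outside the 100 bp around the gene.

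The strongest entry within 100 bp of a tRNA gene lay 22 bp upstream of the tRNA-Cys gene C37A2.t1, inside cye-1, the cyclin E gene, on chromosome I. It had signals of 44.4 in replicate 1 and 67.9 in replicate 2 and a pooled signal of 110, and it ranked 169 of 21931. Next came the tRNA-Val gene R04D3.t2, with 24.1 in replicate 1 and 72.1 in replicate 2 and 97.0 pooled. In both entries replicate 2 gave the higher signal, but the lists are not scaled to each other. The tRNA-Lys gene C33G3.t2 followed, with 37.5 in replicate 1, 59.3 in replicate 2 and 92.0 pooled. The tRNA-Leu gene C04A11.t1, a gene with no identical copy, had 31.8 in replicate 1, 52.1 in replicate 2 and 90.4 pooled. Of the 15 strongest entries, 11 lay on the X chromosome.

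Below these stood tRNA-Pro genes C16B8.t2 (pooled 83.6) and ZK899.t1 (80.4), the tRNA-Asn gene F41D9.t3 (81.1), the tRNA-Lys gene W03G11.t1 (79.5) and the tRNA-His gene C06G1.t1 (76.6). The rest of the 15 strongest lay at R04A9.t1 (tRNA-Gln, summit 215 bp upstream, 76.6), F57F5.t1 (tRNA-Ile, 73.9), T03G6.t1 (tRNA-Gly, 71.2) and R04E5.t5 (tRNA-Cys, 70.6). At 12 of the 15 the summit lay within 32 bp of the tRNA 5′ end. The threshold fell among entries of nearly the same signal: F32B4.t1 (tRNA-Cys), with 35.9, was the last entry of the whole thresholded set, and F29C4.t1 (tRNA-Arg), also 35.9, ranked 2179.

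The replicates were set side by side to ask how often an entry of the pooled list stood in each. Of the 386 entries, 233 (60.4%, 55.3 to 65.3) overlapped an entry of each replicate by 1 bp or more, beside 43.4% of all pooled entries. An entry of replicate 1 was overlapped by 265 (68.7%), beside 62.3% of all pooled entries, and one of replicate 2 by 340 (88.1%), beside 73.9%. Replicate 2 alone had an entry at 107 (27.7%), beside 30.5% of all pooled entries, and replicate 1 alone at 32 (8.29%), beside 18.8%. The 82 thresholded entries had an entry in both, as did 98.9% of all thresholded entries. The thresholded set was also the 2177 entries of highest pooled signal, so this sets entries at tRNA genes apart in no way. Pooled calls draw on both replicates, so this overlap is not independent of the pooled list.

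Each replicate list was also taken alone, and its share of summits within 100 bp was lower than the 65.8% of the pooled list. The 21931 strongest entries of replicate 1 held 297 at tRNA genes, 170 of them (57.2%) within 100 bp of the 5′ end, with a median summit at -34 bp. Those of replicate 2 held 390, 237 of them (60.8%) within 100 bp, with a median at -27 bp. At 173 sites near a 5′ end with entries in both replicates, the 2 summits lay a median of 37 bp apart, and 110 (63.6%) lay within 50 bp of each other. In both lists the median summit lay upstream of the gene.

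Counted by gene, agreement was partial. An entry within 100 bp of the 5′ end was present in replicate 1 for 197 of 612 tRNA genes and in replicate 2 for 271, using all 30000 entries of each. Both replicates had one at 154 genes, replicate 1 alone at 43, replicate 2 alone at 117 and neither at 298. Of the 271 genes with an entry in replicate 2, 56.8% had one in replicate 1, and of the other 341 genes 12.6% did. Replicate 1 thus held fewer of these sites, and most of those it held were also in replicate 2.

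Signals of entries with both replicates rose together with a Spearman rho of 0.637 across the 233 sites, given as a description, since the sites share the libraries. Over all 9526 pooled entries with both replicates rho was 0.594. Among the 82 thresholded entries at tRNA genes it was 0.218, and among all 2153 thresholded entries with both it was 0.355. Thresholded entries were cut on pooled signal and span a narrower range, so their rho cannot be set against that of all sites. The median log2 ratio of replicate 2 over replicate 1 was 0.71 (SD 0.74 across sites) for entries at tRNA genes and 0.46 for all pooled entries. In the thresholded set it was 0.71 for entries at tRNA genes and 0.33 for all entries. Entries at tRNA genes thus leaned towards replicate 2 more than the pooled list did, and the difference was not tested. Of the 82 thresholded entries, 56 (68.3%) had an overlapping entry among the top 2177 of replicate 1 and 69 (84.1%) among the top 2177 of replicate 2, against 80.6% and 82.1% of all thresholded entries.

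**Figure D2:**
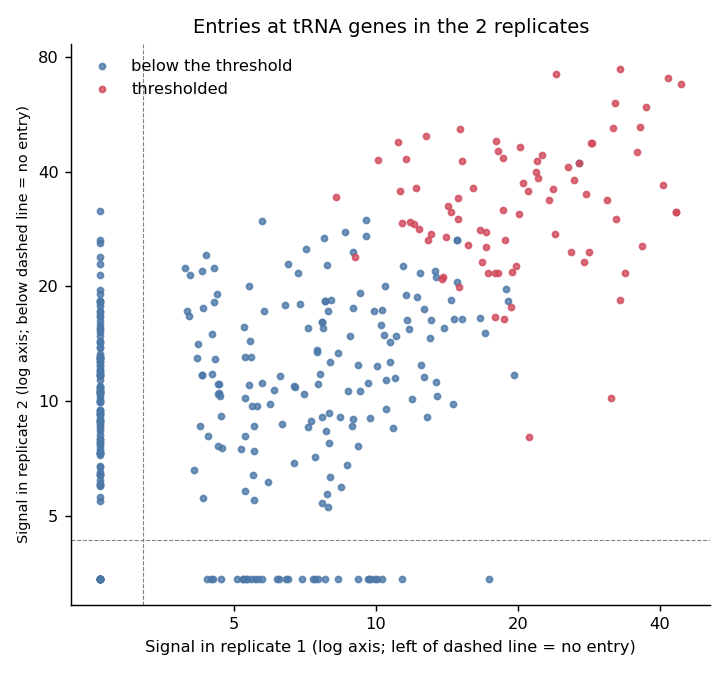
Signal of each of 386 entries at tRNA genes in replicate 1 (x axis) and replicate 2 (y axis), both on log axes, using the strongest overlapping entry. Points left of the vertical or below the horizontal dashed line had no entry in that replicate. The 82 thresholded entries, in red, have both.

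Entries absent from a replicate were ranked after its last entry, at 30001, so the largest rank differences are those of the strongest entries seen in 1 replicate. Towards replicate 2 these lay at W09D6.t2 (tRNA-Pro), K07A1.t1 (tRNA-Ser), F11H8.t1 (tRNA-Thr), H06A10.t1 (tRNA-Pro) and W06D4.t1 (tRNA-Asn). Their replicate 2 signals were 31.5, 26.4, 26.0, 23.9 and 22.9, and replicate 1 had no entry. Towards replicate 1 they lay at M163.t1 (tRNA-Lys, 17.4), K02E11.t1 (tRNA-Gln, 11.4), Y17G9A.t1 (tRNA-His, 10.3), K01A11.t1 (tRNA-Lys, 10.05) and Y57G11B.t1 (tRNA-Gly, 9.97), where replicate 2 had none. All 10 were below the threshold in the pooled list.

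Each isotype, a class of tRNA genes by the amino acid carried, was taken in turn. RefSeq gives an isotype for 607 of the 612 genes. Among isotypes with 10 or more genes, the highest shares with an entry anywhere in the window were in tRNA-Cys (12 of 13, 92.3%), tRNA-Met (15 of 20, 75%) and tRNA-Asp (20 of 27, 74.1%). The lowest were in tRNA-Ser (15 of 39, 38.5%), tRNA-His (8 of 20, 40%) and tRNA-Asn (9 of 20, 45%). With the summit within 100 bp the shares ran from 25% for tRNA-His (interval 8.66 to 49.1) to 61.5% for tRNA-Cys (31.6 to 86.1), around 42.5% of all tRNA genes (38.5 to 46.5). The intervals of those 2 isotypes overlapped. The selenocysteine tRNA gene K11H12.t1, the single gene of its kind and chosen after its values were seen, had a thresholded entry (43.1) with its summit 93 bp upstream, in the promoter window of a protein-coding gene. The overlapping replicate entries had signals of 31.5 and 10.2, with summits more than 100 bp from the 5′ end.

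**Figure D3:**
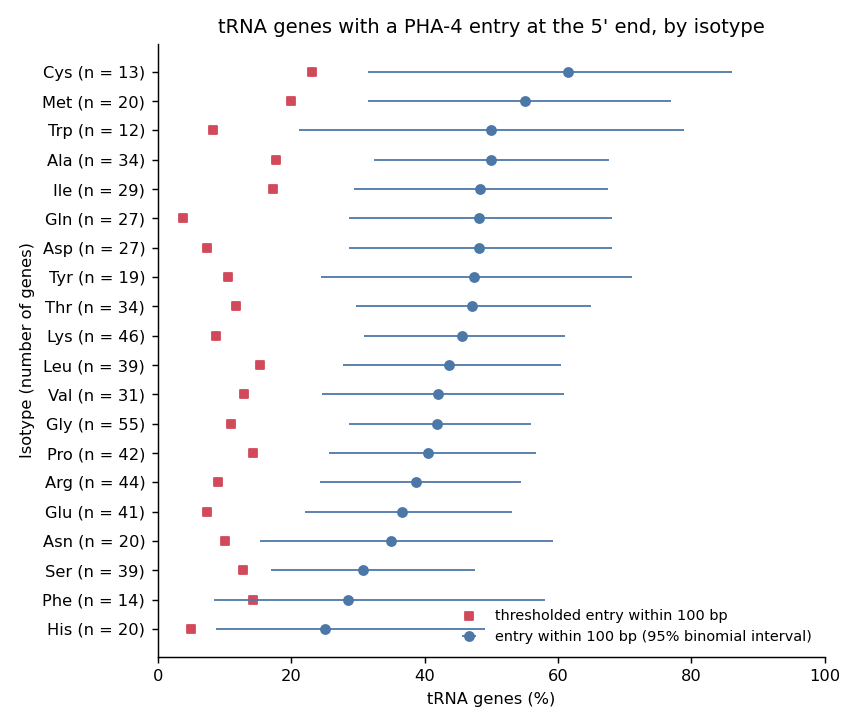
Share of tRNA genes with a PHA-4 entry within 100 bp of the 5′ end (circles, with exact 95% binomial intervals) and with a thresholded one (squares), in percent, for the isotypes with 10 or more genes. The shares run from 25% for His to 61.5% for Cys, with wide overlap of the intervals.

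Many tRNA genes are exact copies of one another, so the gene itself can be held constant while its place in the genome varies. There were 25 sets of 8 or more identical genes, together 361 genes. Each set had copies with an entry within 100 bp of the 5′ end and copies without one, with shares between 20% and 72.7% (median 46.7%). The share over all 612 tRNA genes was 42.5%, so the median lay near it, and a mix of both kinds is not particular to identical genes. Each set also had a thresholded entry at 1 copy or more. Within a set, the highest pooled signal was a median of 5.58 times the lowest among copies with an entry (range 1.34 to 10.6 times). Identical genes thus differed in signal. No such ratio was taken for unlike genes. The ratio is also bounded by the lowest listed signal (9.22) and depends on the number of copies with an entry. Reads that fall inside identical copies cannot be assigned to one of them, and how the authors treated such reads is not given in the sources used here. An entry within 100 bp stood at 30.8% of genes with 1 copy (44 of 143) and 39.8% with 2 to 7 copies (43 of 108). With 8 or more copies the share was 47.9% (173 of 361), so these sets are the class with the highest share. The difference was not tested.

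The set of 14 tRNA-Lys genes that holds C33G3.t2 and ZK994.t2 is an example. Of these, 7 had an entry within 100 bp: C33G3.t2 (92.0), K04C2.t3 (34.9), F18C5.t1 (21.8), F43C9.t1 (21.6), E03E2.t3 (12.6), Y70C5A.t1 (11.6) and F49C5.t4 (9.26). C33G3.t2 alone among them was thresholded, and the other 7 copies, ZK994.t2 among them, had no such entry. The set of 24 tRNA-Pro genes that holds ZK899.t1 had 11 with an entry and 4 thresholded, at ZK899.t1 (80.4), C16B8.t1 (55.6), F46G11.t1 (46.6) and T23F1.t2 (39.4). The 10 identical tRNA-Arg genes, all on X, had 5 with an entry, from 56.3 at T06H11.t2 to 26.2 at F09B9.t1.

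**Figure D4:**
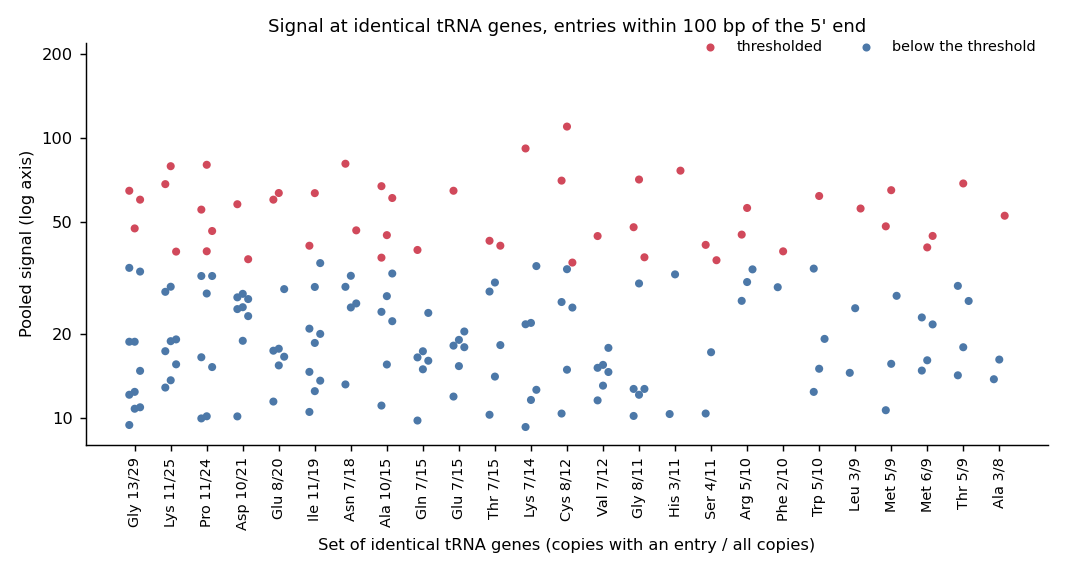
Pooled signal (log axis) of entries within 100 bp of the 5′ end at 25 sets of identical tRNA genes, 1 column per set, labelled with the isotype and the copies with an entry out of all copies. Red points are thresholded entries. In each set some copies have an entry and others none.

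What copies with and without an entry shared outside the gene was described by base composition and neighbours. In the 50 bp before the gene the median share of A and T was 54% (quartiles 50 and 60) for the 260 tRNA genes with an entry within 100 bp and 60% (54 and 66) for the 352 without one. In 20 of the 25 identical sets the median was lower in copies with an entry, in 4 it was higher and in 1 equal. Of tRNA genes with another tRNA 5′ end within 500 bp, 49 of 159 (30.8%) had such an entry, beside 211 of 453 (46.6%) of those standing apart. Over the whole window of 1000 bp upstream to 200 bp downstream the shares were 60.4% and 61.4%, so this gap appeared only at 100 bp. The share with an entry within 100 bp was 41.8% for genes inside a protein-coding gene (122 of 292) and 43.1% for those outside one (138 of 320). The B box letters stood in 159 of the 260 genes with an entry (61.2%) and in 66.8% of the 352 without one. These comparisons were chosen after values were seen and were not tested.

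Clusters of tRNA genes held several entries. Of the 386 summits, 65 lay in the windows of more than 1 tRNA gene, so gene counts exceed what separate sites would give. The gene with most entries in its window was Y65A5A.t2 (tRNA-Ala, chromosome IV), with 4. The genes F59C12.t3, M02F4.t1, T09B4.t1, T09B4.t2, Y65A5A.t3 and Y65A5A.t4 had 3 each.

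The X chromosome carries a large part of the tRNA genes and of their strong entries. It held 276 of the 612 genes (45.1%) and 165 of the 386 entries (42.7%), beside 21.3% of all pooled entries. On X 50 of 165 entries at tRNA genes were thresholded (30.3%, 23.4 to 37.9), and on the other chromosomes 32 of 221 (14.5%, 10.1 to 19.8). Of all pooled entries on X, 9.79% were thresholded. The median pooled signal was 20.8 on X and 17.5 elsewhere. The share of tRNA genes with an entry within 100 bp was 43.5% on X (120 of 276) and 41.7% elsewhere (140 of 336). Thresholded entries within 100 bp were at 47 genes on X (17.0%) and 25 elsewhere (7.44%).

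Motifs were searched on both strands within 100 bp on each side of the summit. The PHA-4 consensus TRTTKRY stood at 45.3% of entries at tRNA genes (40.3 to 50.5), beside 52.3% of all pooled entries. The stricter TGTTTRC, each match of which is also a match to TRTTKRY, stood at 13.2% beside 10.7%. GAGAGA stood at 27.7% (23.3 to 32.5) beside 21.4%. Among thresholded entries TRTTKRY stood at 53.7% at tRNA genes and 61.1% of all, TGTTTRC at 19.5% and 20.6%, and GAGAGA at 46.3% and 47.7%. The interval for TRTTKRY among thresholded entries at tRNA genes, 42.3 to 64.7, held the share of all thresholded entries. None of these differences was tested.

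The rule itself brought tRNA genes, and with them their internal promoters, into the windows. The B box letters stood at 37.8% beside 0.994% of all pooled entries, and at 52.0% of the 254 within 100 bp. The A box, searched as T, any base, G, any 3 bases, A, any 3 bases and GG, stood at 40.4% beside 26.6%. Within the gene itself the A box letters matched 22.1% of the 612 tRNA genes and the B box letters 64.4%. A gene without a match to these letters may thus still hold the box, and a match in a window need not be one. The median GC share of the window was 45.8% at tRNA genes and 38.8% over all pooled entries. Since the rule placed the windows at tRNA genes, these shares describe the windows and say nothing on what PHA-4 contacts.

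Other small RNA genes give a scale for the placement. Entries at small nucleolar RNA genes, chosen by the same window, numbered 239. The share within 100 bp of the 5′ end was 65.8% at tRNA genes and 41.0% at small nucleolar RNA genes (98 of 239), while the thresholded share was 21.2% and 43.1%. By gene, an entry within 100 bp was present at 42.5% of tRNA genes, 28.6% of small nucleolar RNA genes, 20.2% of small nuclear RNA genes, 6.51% of microRNA genes and 9.12% of protein-coding genes. A thresholded one was present at 11.8%, 18.2%, 8.53%, 1.53% and 1.68% in the same order. All of these are annotated 5′ ends and not mapped starts of transcription. They may lie at unlike distances from the promoter in different biotypes, so the shares within 100 bp are not strictly alike. In the whole window of 1000 bp upstream to 200 bp downstream the shares of tRNA and small nucleolar RNA genes with an entry were 61.1% and 60.1%, so the gap between them appeared at 100 bp, a distance chosen after seeing the data. The 100 bp upstream of the 5′ end held 152 of 386 entries at tRNA genes, with a median signal of 26.8 and 50 thresholded. The same stretch held 83 of 239 entries at small nucleolar RNA genes, with a median signal of 49.9 and 57 thresholded, so these gathered before the gene as well. None of the 20 nuclear ribosomal RNA genes had an entry in its window. How reads shared between gene copies were treated is not given, so a missing entry there does not show that binding was absent.

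**Figure D5:**
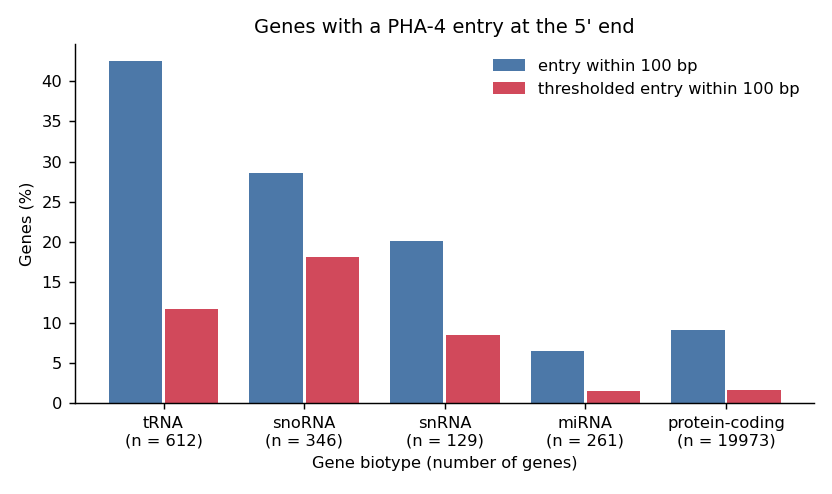
Share of genes of 5 biotypes, in percent, with a PHA-4 entry within 100 bp of an annotated 5′ end (blue) and with a thresholded one (red). tRNA genes have the tallest blue bar (42.5%) and small nucleolar RNA genes the tallest red bar (18.2%).

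Protein genes of the tRNA pathway were looked up in a list of 16 covering RNA polymerase III, its regulators and tRNA maturation. A pooled entry lay in the promoter window of 7 of the 16, beside 36.6% of protein-coding genes, and a thresholded one at 2, beside 9.18%. The thresholded ones were mafr-1, the homologue of the polymerase III repressor Maf1 (25.04 in replicate 1, 37.5 in replicate 2, 65.1 pooled), and pus-1, which encodes a pseudouridine synthase (36.9, 17.2 and 53.2). Below the threshold were tut-2 (16.6), tbp-1, the TATA-binding protein gene (11.8), elpc-2 (11.5), rtcb-1, the tRNA ligase gene (9.93), and rpc-1 (9.86). No pooled entry lay at brf-1, rpc-2, hoe-1, hpo-31, nsun-2, tut-1, elpc-1, elpc-3 or alkb-8. The counts are near the background of all protein-coding genes.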

How the data were processed

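Entries came from 4 deposited ce11 peak lists: 1 per replicate, 1 called by the authors on both replicates pooled, and the thresholded set. The labels give the assembly, and the deposited file listing gives the derivation of each list from alignments and 2 control files. The peak caller, the aligner and the cut-off are unnamed in the labels and headers. Signal, as deposited, is the caller's own value per entry, and the -log10 q per entry, as the authors deposited it, was not used. The ce10 lists were not used.

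Summits (interval start plus offset) were set against Ensembl release 115 (WBcel235), and RefSeq annotation of that assembly, matched by WormBase identifier, gave names and isotypes. Each entry took the tRNA gene with the nearest 5′ end among those whose window held its summit. Overlap meant 1 bp or more. Shares carry exact Clopper-Pearson 95% intervals. No test was run, because all samples form 1 group. The code that assigns a summit to a window was checked on made-up positions with known distances, which bears on the code and not on where the real summits lie. Members and lists were chosen with earlier results of these data known. Named were the 15 strongest members, the 5 with the largest rank difference in each direction (an entry absent from a replicate was ranked 30001, after its last entry), the members beside the threshold, the 3 isotypes with the highest and lowest shares, the genes with most entries, the gene list, and exceptions marked as such. The distance of 100 bp, the sets of identical genes and the X split were chosen after seeing the data. Alternatives are given in the closing section. Tools were Python 3.11.15, numpy 2.4.6, pandas 2.3.3, scipy 1.17.1 and matplotlib 3.10.9.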

Additional observations from a re-analysis of the deposited data

How the results depend on the processing

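Of 49 results under other settings, 38 kept their value within the counting interval, the quartiles of the members or 1.5 times the count, and 11 did not. These bounds are wide, so the 38 are no measure of stability. For summits within 100 bp, a median signal of 24.6 beside 18.3 and 260 tRNA genes beside 374 counted as kept. So did a median summit at -52 bp beside -26 bp, with the window of 2000 bp upstream. Restricting to thresholded entries left 82 entries in the windows of 91 tRNA genes, with TRTTKRY at 53.7% of summits. Keeping the upper 50% of the thresholded set by signal, 9.84% of the entries were in it, beside 4.96% of all pooled entries. The share with entries in both replicates was 54.4% with reciprocal overlap of 50% and 38.6% with summits within 50 bp, beside 34.4% and 22.5% of all pooled entries. TRTTKRY stood at 24.4% within 50 bp of the summit, beside 33.0% of all pooled entries, and TGTTTRC in its place at 13.2%, beside 10.7%. Chosen after seeing the data, summits within 100 bp of the 5′ end gave 27.6% thresholded and 68.1% in both replicates, and leaving out chromosome X gave 14.5% thresholded. Why these shares moved was not tested beyond the narrower definitions themselves. With each replicate list alone the count of entries ranged from 297 to 390 and that of tRNA genes from 291 to 361, the median summit from -34 to -27 bp, the TRTTKRY share from 46.2% to 47.8% and the protein-coding promoter share from 26.4% to 26.9%. Windows of 500 and 2000 bp upstream gave 319 and 513 entries, with 24.8% and 18.5% thresholded. No paired analysis was possible because all samples form 1 group. The depth is unknown, so entries missing from a replicate may be undetected and not absent.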
